A study of Mus musculus with 16 samples.

Results

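Potassium channel genes of nerve, muscle and neighbouring cells were followed across the proximal and distal colon of WT and HSCR mice. The genes were chosen by symbol, as protein-coding genes named Kcn followed by letters and a number. Of 91 genes that fit the pattern in a table of 56748 genes, 77 had at least 10 counts in at least 4 of the 16 libraries and were kept, and 14 were under that minimum. The 77 kept genes therefore do not stand for the whole set of potassium channel genes, since a gene present in a single group can pass the minimum through that group. Just inside it, with 4 libraries, were Kcng3, Kcna7, Kcnj4, Kcnk7 and Kcnk12, with highest counts from 36 to 108, and just outside it, with 3 libraries, were Kcnj16 and Kcnh4, with highest counts of 37 and 20. Kcna10, Kcnj1 and Kcnk18 had 0 counts in all 16 libraries.

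The tissue was the LMMP, the longitudinal muscle with the myenteric plexus attached, microdissected from colon. HSCR mice were Ednrb-/- animals, homozygous for the Ednrb tm1Ywa null allele on a hybrid C57BL6/J-129Sv background, and WT mice were their Ednrb+/+ littermates. Mice of both sexes were used at 2 to 4 weeks of age. Polyadenylated RNA was sequenced from the proximal colon, which is ganglionic in HSCR mice, and from the distal colon, which the study treats as the aganglionic segment, in 4 libraries per genotype and segment (WT proximal, HSCR proximal, WT distal, HSCR distal). Ednrb encodes a receptor that neural crest cells need to colonise the gut, and the null allele was present in all cells of the HSCR mice. The HSCR segments therefore differ from WT both in genotype and, distally, in their enteric ganglia. The tissue entries of the 8 distal libraries name the proximal colon, whereas their titles name the distal colon, and the titles were followed.

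Potassium channels set the resting potential of excitable cells and end their action potentials. In the enteric nervous system, voltage-gated Kv channels shape the firing of neurons and the Kv7 channels of the M current hold it back. In smooth muscle, BK channels, inward rectifiers of the KATP type and leak channels of the K2P family oppose contraction, and in the epithelium other members drive ion transport. Silent Kv subunits such as Kcng4 form no channel alone and alter the channels they join.

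Levels are given in CPM, read counts per gene relative to the library size after scaling by the TMM method. Total counts on genes ranged from 21384372 to 45831881 per library, and mitochondrial genes took from 4.32% to 49.8% of them. Their share was 49.8%, 17.8%, 7.31% and 34.6% in WT proximal libraries 1 to 4. It was 5.56%, 6.68%, 6.34% and 20.1% in HSCR proximal libraries 1 to 4. WT distal libraries held 4.32% to 23.7% and HSCR distal libraries 5.93% to 11.3%. Differences were tested by quasi-likelihood in edgeR, in 1 fit of all 16 libraries, with p-values adjusted over 18926 genes after Benjamini and Hochberg, at a biological coefficient of variation of 0.802. The methods give as many mice as libraries for each group, but the labels tie no library to a mouse, and whether both segments came from the same mice is not given in the sources used here, so p-values measure the spread between libraries. Library names of replicates 1 and 2 belong to another series than those of replicates 3 and 4, and what the series mark is not given either. Among replicates 3 and 4, names begin with CM for both WT proximal libraries and HSCR proximal library 4, and with LC for the rest. In WT replicates 3 and 4, name prefix and segment therefore cannot be told apart. Ednrb was at 33.9 to 67.7 CPM in WT proximal, 7.85 to 36.3 CPM in HSCR proximal and 12.2 to 40.2 CPM in WT distal libraries. HSCR distal libraries 2 to 4 held 5.55 to 9.57 CPM of Ednrb, and the library labelled HSCR distal 1 held 97.0 CPM, the highest of the 16. Posterior Hox genes (5 genes, summed) were at 40.0 CPM in that library and at 211 CPM in the library labelled HSCR proximal 1. The other 7 proximal libraries held 24.5 to 58.5 CPM of them, the WT distal libraries 179 to 279 CPM and HSCR distal library 4 held 68.3 CPM. The libraries labelled HSCR proximal 1 and HSCR distal 1 thus go against their segment labels in the posterior Hox genes. HSCR distal library 4 also lay nearer to the proximal than to the WT distal libraries in these genes. The Ednrb level of the library labelled HSCR distal 1 was above that of every proximal library as well. Counts of separated genes, and the fold changes of the genes most affected, are also given without both libraries labelled HSCR 1. HSCR distal library 4 was kept in those results.

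Cell type content differed between libraries of a group. A list of 12 neuronal genes, whose defining markers Elavl4, Uchl1 and Snap25 were counted in every library, summed to 609 to 3537 CPM in WT proximal and 88.2 to 2792 CPM in HSCR proximal libraries. Its sum was 95.4 CPM in WT distal library 1, 346 CPM in library 2, 2353 CPM in library 3 and 1676 CPM in library 4. HSCR distal libraries 2 to 4 were at 97.6, 44.8 and 19.4 CPM, and the one labelled HSCR distal 1 was at 1393 CPM. Between 10 and 12 of the 12 genes were counted in each library. Vip made up 1608 and 871 CPM of the sums of HSCR proximal libraries 3 and 4, against 217 and 366 CPM in WT proximal libraries 3 and 4. Elavl4 was at 48.5 and 40.2 CPM in those HSCR libraries, against 175 and 137 CPM in those WT libraries. Snap25 was at 67.7 and 49.0 against 246 and 222 CPM. Like sums of the list thus do not stand for like levels of these markers. The neuronal sum overlapped between WT and HSCR in both segments. In bulk tissue, fewer cells of a type and less RNA per cell cannot be told apart.

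Sequences upstream of the start are printed for 3 genes, those with the highest level per kb among the 6 genes whose WT and HSCR libraries did not overlap in at least 1 segment (Kcnab2, Kcnc4, Kcng4, Kcnh6, Kcnh8 and Kcnmb2). They are the 250 bases before the RefSeq start, 5′ to 3′ on the gene's strand, in the GRCm38.p6 build, with matches to GGGCGG (the GC box), CCAAT and TATAAA on either strand in capitals. Kcng4 lies on the minus strand at chr8:119635681-119635930, Kcnab2 on the minus strand at chr4:152477550-152477799, at the farthest upstream of its 3 listed starts, and Kcnc4 on the minus strand at chr3:107458899-107459148.
Kcng4: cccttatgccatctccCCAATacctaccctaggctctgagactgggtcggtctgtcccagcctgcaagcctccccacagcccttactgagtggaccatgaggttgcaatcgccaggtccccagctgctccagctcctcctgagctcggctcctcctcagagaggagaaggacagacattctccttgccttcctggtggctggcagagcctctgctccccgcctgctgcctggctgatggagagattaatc
Kcnab2: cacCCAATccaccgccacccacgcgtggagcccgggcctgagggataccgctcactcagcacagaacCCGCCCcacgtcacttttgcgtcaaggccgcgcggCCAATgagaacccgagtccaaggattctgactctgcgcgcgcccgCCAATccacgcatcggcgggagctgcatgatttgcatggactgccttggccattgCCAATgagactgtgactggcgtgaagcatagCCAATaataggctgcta
Kcnc4: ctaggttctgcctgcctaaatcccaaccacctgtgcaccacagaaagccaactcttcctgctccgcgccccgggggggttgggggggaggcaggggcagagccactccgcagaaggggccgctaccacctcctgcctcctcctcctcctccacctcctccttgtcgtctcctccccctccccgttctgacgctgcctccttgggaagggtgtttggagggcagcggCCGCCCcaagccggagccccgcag

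The Kcnab2 window held 5 CCAAT matches, 1 GC box and 20 CpG dinucleotides. Kcnc4 had 1 GC box, 0 CCAAT matches and 12 CpG, and Kcng4 had 1 CCAAT match, 0 GC boxes and 4 CpG. No TATAAA match was found in the 3 windows. The median over all 32851 windows of this length was 6 CpG, and over the 75 windows of the 54 genes of the 77 found in the table it was 8 CpG. Among all windows, 32.7% held a GC box, 33.8% CCAAT and 12.4% TATAAA. The windows of the potassium channel genes held these in 46.7%, 29.3% and 1.33%, the last being 1 window. Such matches describe letters and not binding sites.

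Per kb of gene length, the highest mean level over the 16 libraries was that of Kcnj8, the pore subunit of the vascular and muscle KATP channel, at 56.9 CPM per kb. Next were Kcnmb1, the smooth muscle beta subunit of the BK channel, at 19.4, Kcne4, an accessory subunit of Kv channels, at 15.9, Kcnh2, the ERG channel, at 13.97, and Kcnk3, a leak channel, at 13.2 CPM per kb. Kcnf1 led the silent Kv subunits at 9.81 CPM per kb. Of the KChIP subunits of Kv4 channels, Kcnip4 was highest at 6.79 CPM per kb, and the pore gene Kcnd3 led the Kv4 genes at 4.34 CPM per kb. Kcna2, an axonal channel, led the Kv1 genes at 3.29 CPM per kb. The beta subunit Kcnab2 was also at 3.29 CPM per kb. The lowest of the subfamily leaders were Kcnt2 of the sodium-activated channels (1.57 CPM per kb), the intermediate-conductance channel Kcnn4 (1.31) and Kcnc4 of the Kv3 genes (1.18). Levels of Kcnj8 spanned 34.3 to 374 CPM between libraries, and neighbours in this order were not tested against each other.

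**Figure D1:**
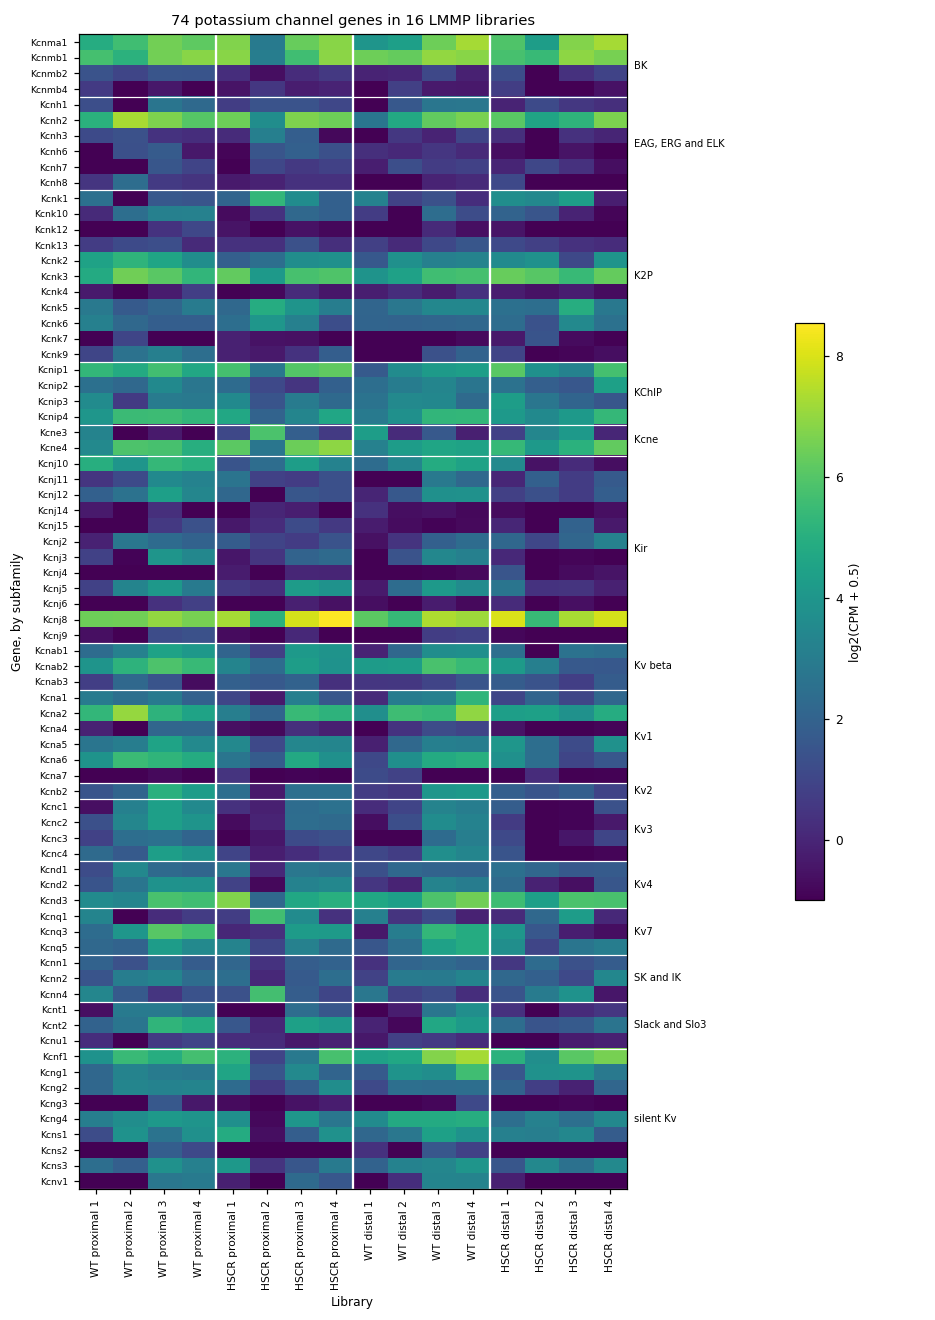
Level of 74 of the 77 potassium channel genes (rows, by subfamily) in the 16 libraries (columns, by group), as log2(CPM + 0.5) on the colour scale. Kcnj8 is the brightest row, the Kv3 rows are darkest in HSCR distal libraries 2 and 3, and Kcnq1, Kcnn4 and Kcne3 are brightest in HSCR proximal library 2.

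In the proximal colon, 55 of the 77 genes had a lower fitted level in HSCR than in WT and 22 a higher one. Their median fold change was -0.66 on the log2 scale, where that of the 18926 genes was 0.09 and 43.9% of those were lower. No potassium channel gene passed the adjusted threshold, and 0.0% of all genes did (smallest adjusted p of the 77 genes 0.703 by edgeR's quasi-likelihood test). At an unadjusted p under 0.05, 5 of the 77 were lower, where 2.98% of all genes were, and 1 was higher, where 4.12% were. WT and HSCR libraries did not overlap for Kcnc4, Kcnh8 and Kcnmb2, each lower in HSCR, against 2.57% of all genes, and for 0 genes in the other direction, against 2.25%. The closest pair of Kcnh8 was WT library 4 at 0.863 CPM (20 counts) and HSCR library 4 at 0.788 CPM (22 counts). Its separation thus rests on few counts and on the scaling by library size. By DESeq2, 0 of the 77 passed the adjusted threshold as well. With 4 RUVr factors, estimates of unwanted variation that the study's own analysis used, 10 of the 77 passed it in edgeR's likelihood ratio test, 4 higher and 6 lower, where 10.5% of all genes passed. Among the 6 lower genes were Kcnab2, Kcnc4, Kcnip4, Kcnj10 and Kcnj12, and the 4 higher ones were Kcne3, Kcnj4, Kcnk1 and Kcnq1.

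In the distal colon, 51 of the 77 genes had a lower fitted level in HSCR than in WT, with a median of -0.57 on the log2 scale, where that of the whole table was 0.07 and 44.6% were lower. Again no gene passed the adjusted threshold, among the 77 or elsewhere in the table (0.0%). Lower at an unadjusted p under 0.05 were 12 of the 77, where 2.33% of all genes were, and 1 was higher, where 1.55% were. That count of 12 was 4 with the replicate number as a block and 2 with the name series as a term. Kcnab2, Kcng4 and Kcnh6 were lower in HSCR without overlap, against 1.04% of all genes, and 0 genes were higher without overlap, against 0.824%. DESeq2 likewise passed 0 of the 77. With the RUVr factors 13 of the 77 passed, 9 lower and 4 higher, where 3.62% of all genes did. Among the 9 lower genes were Kcna4, Kcnab2, Kcnc2, Kcnc4, Kcnj10, Kcnj3, Kcns2 and Kcnv1, and the 4 higher ones were Kcne4, Kcnj4, Kcnk1 and Kcnk3. In the fit without these factors, leaving out WT distal library 1 gave 17 lower genes at an unadjusted p under 0.05 and leaving out WT distal library 4 gave 5. For the counts of 4, 2, 17 and 5, the share of all genes in the same fit is not given here. Whether these counts moved apart from those of all genes is therefore not shown.

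**Figure D2:**
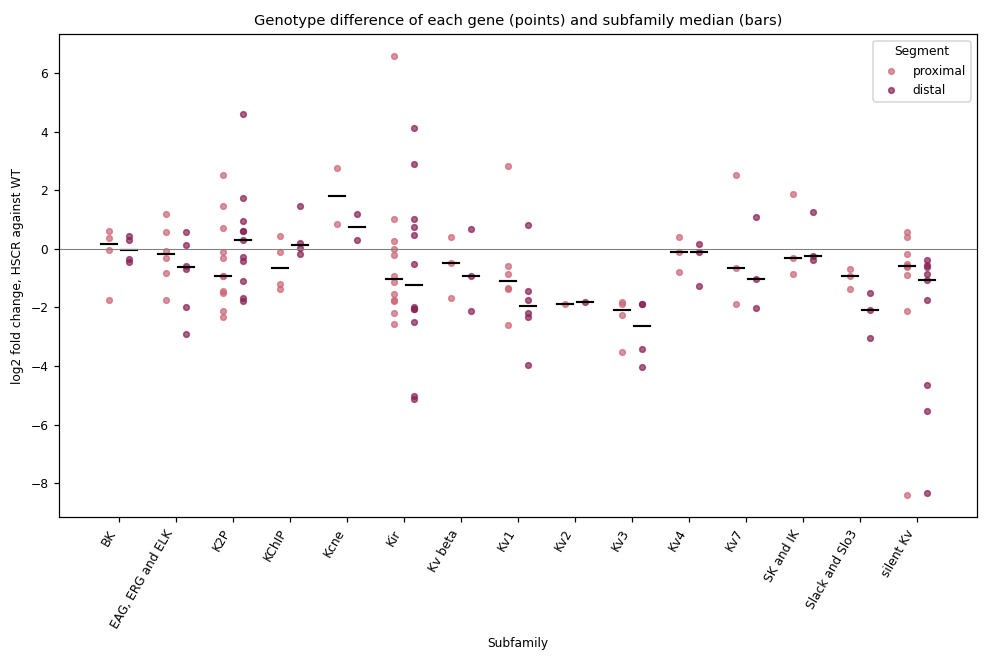
Fitted log2 fold change of HSCR against WT for 74 of the 77 genes (points) in the proximal and distal colon, by subfamily, with the median of the points shown as a bar. All 4 Kv3 genes lie below 0 in both segments, with medians of -2.07 and -2.65, and the BK genes have medians of 0.16 and -0.03. The lowest points are Kcns2, which had 0 counts in every HSCR library.

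The 17 genes listed as neuronal include channel subunits of axons, cell bodies and synapses. Fitted levels were lower in HSCR for 15 of them in the proximal colon, with a median log2 fold change of -1.55, and for all 17 in the distal colon, with a median of -1.90. At an unadjusted p under 0.05, 2 were lower proximally, where 2.98% of all genes were, and 6 distally, where 2.33% were. Summed over the 17 genes, WT proximal libraries held 101 to 407 CPM and HSCR proximal libraries 26.3 to 144 CPM, so that the groups overlapped. The sums were 44.2 to 385 CPM in WT distal and 42.8 to 91.8 CPM in HSCR distal libraries. HSCR distal library 4, with 19.4 CPM of the neuronal markers, still held 40.6 CPM of Kcnip4 and 29.5 CPM of Kcna2, both counted in this list.

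**Figure D3:**
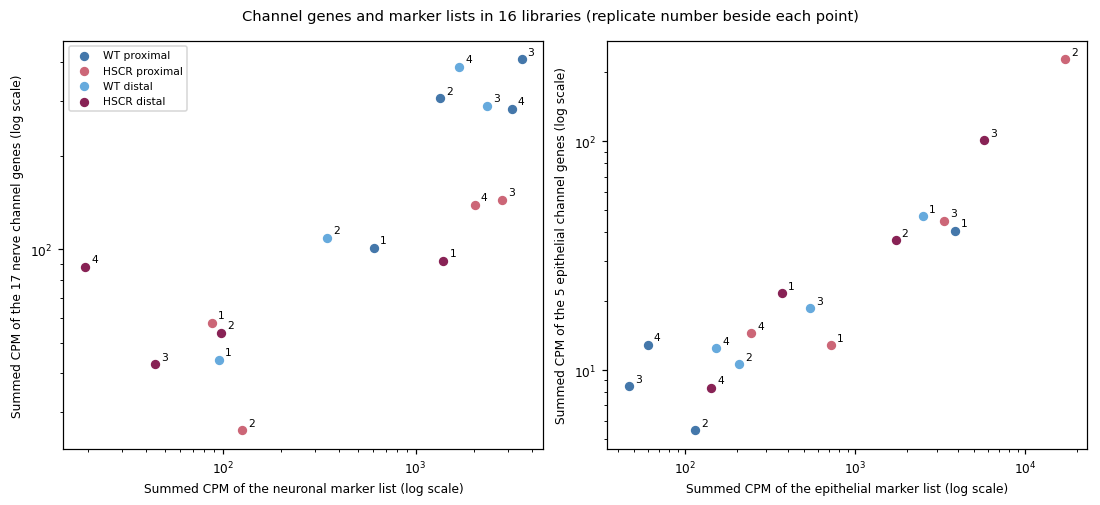
Left, summed CPM of the 17 neuronal potassium channel genes against the summed CPM of the 12 neuronal markers in each library, on log scales, with the replicate number beside each point. HSCR proximal libraries 3 and 4 hold 2792 and 2025 CPM of the markers and lie below WT libraries with like marker sums. Vip makes up 1608 and 871 CPM of these HSCR sums, against 217 and 366 CPM in WT proximal libraries 3 and 4. Right, the 5 epithelial channel genes against the epithelial marker list, both highest in HSCR proximal library 2.

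Kv7 channels carry the M current, which in neurons involves the subunit Kcnq3. Kcnq3 (ENSMUSG00000056258, chr15:65858236-66158491, minus strand, mm39) was at 4.67, 15.8, 67.3 and 49.7 CPM in WT proximal libraries 1 to 4 and at 0.550, 0.767, 18.4 and 17.9 CPM in HSCR proximal libraries 1 to 4. WT libraries 1 and 2 lay below HSCR libraries 3 and 4, and WT libraries 3 and 4 lay above every HSCR library. The means were 34.4 ± 29.1 and 9.40 ± 10.1 CPM (SD, n = 4), and the log2 fold change came to -1.87 (standard error, SE, 1.47, adjusted p = 0.803 by edgeR's quasi-likelihood test). Distally, Kcnq3 was at 0.267, 7.73, 39.6 and 28.8 CPM in WT and at 15.7, 2.53, 0.378 and 0.138 CPM in HSCR libraries, with the library labelled HSCR distal 1 the highest of the HSCR group. The distal log2 fold change was -2.03 (SE 1.49, adjusted p = 1.00 by edgeR). Its distal difference of mean log2 CPM was 1.48 in replicates 1 and 2 and -5.52 in replicates 3 and 4. Across the 16 libraries its log2 CPM followed the neuronal list most closely of the 77 genes (Pearson r = 0.97, n = 16 libraries that share 4 groups and their depth).

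Relative to the neuronal marker list, a scale chosen after the values were seen, Kcnq3 was at 0.767, 1.19, 1.90 and 1.58 CPM per 100 CPM of the list in WT proximal libraries and at 0.624, 0.611, 0.659 and 0.884 in HSCR proximal libraries. Only HSCR library 4 reached the lowest WT library, and the groups overlapped through that pair (exact permutation test, two-sided, p = 0.0571, where the smallest that 4 libraries against 4 allow is 0.0286). HSCR proximal libraries 3 and 4, with 2792 and 2025 CPM of the list, were below WT libraries 3 and 4, with 3537 and 3144 CPM of it. Vip alone was 1608 and 871 CPM of the list in those HSCR libraries, against 217 and 366 CPM in those WT libraries. Vip thus lowers the values of HSCR libraries 3 and 4 on this scale. Its part in their difference from WT was not tested, since a list without it was not tried. In the distal colon the groups overlapped on this scale (exact permutation test, two-sided, p = 0.771).

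**Figure D4:**
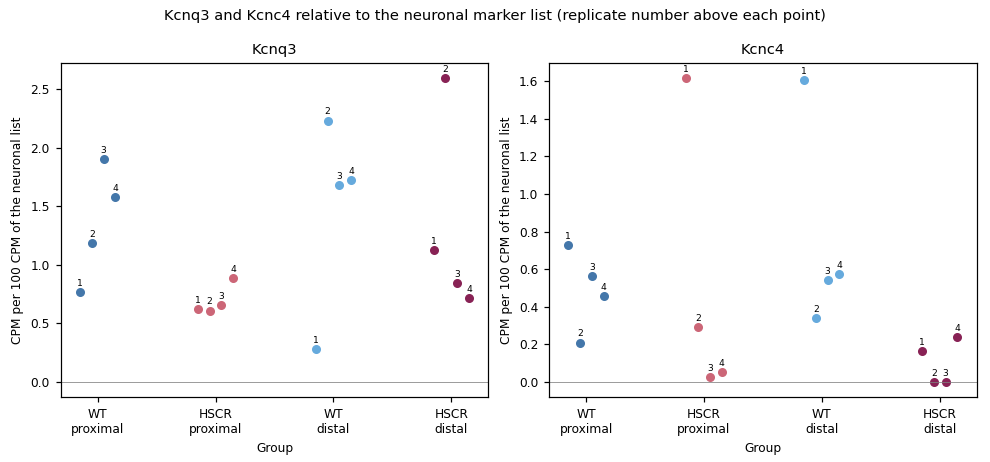
Kcnq3 (left) and Kcnc4 (right) in CPM per 100 CPM of the summed neuronal marker list, 1 point per library with the replicate number above it. For Kcnq3 the HSCR proximal libraries lie at 0.611 to 0.884 and the WT proximal libraries at 0.767 to 1.90. The list includes Vip, at 1608 and 871 CPM in HSCR proximal libraries 3 and 4. For Kcnc4 the HSCR distal libraries lie at 0 to 0.238, all below the WT distal libraries at 0.342 to 1.61. HSCR distal libraries 2 to 4 held 0, 0 and 2 counts of Kcnc4, near the floor.

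Kcnq1, an epithelial and cardiac Kv7 gene, was at 9.42, 0, 0.664 and 1.12 CPM in WT proximal and 1.18, 49.9, 11.8 and 0.788 CPM in HSCR proximal libraries. HSCR proximal library 2 held the most, and the genotype groups overlapped.

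The Kv3 genes encode channels that repolarise fast-firing neurons. All 4 had lower fitted levels in HSCR in both segments, from -1.83 to -3.53 on the log2 scale proximally and from -1.87 to -4.03 distally. Their sum ran from 7.91 to 66.3 CPM in WT proximal, from 1.497 to 13.1 CPM in HSCR proximal, from 2.34 to 38.6 CPM in WT distal and from 0 to 8.09 CPM in HSCR distal libraries. The same 4 genes also had lower fitted levels in distal than in proximal colon of both genotypes, with medians of -0.88 in WT and -0.87 in HSCR.

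Kcnc4 (ENSMUSG00000027895, chr3:107345619-107366868, minus strand, mm39), the Kv3 gene highest per kb, was at 4.45, 2.80, 19.9 and 14.4 CPM in WT proximal libraries. It was at 1.42, 0.365, 0.680 and 1.11 CPM in HSCR proximal libraries, each below every WT library. The log2 fold change came to -3.53 (SE 1.46, adjusted p = 0.703 by edgeR, exact permutation p = 0.0286), and -3.82 without both HSCR libraries 1. Groups of 4 against 4 libraries without overlap always give this exact p. In the distal colon the WT libraries held 1.54, 1.18, 12.8 and 9.59 CPM, the library labelled HSCR distal 1 held 2.32 CPM and the other 3 HSCR libraries held 0, 0 and 0.0461 CPM. The log2 fold change came to -3.40 (SE 1.45, adjusted p = 1.00 by edgeR), and -8.23 without both HSCR libraries 1, with an adjusted p of 0.157 by edgeR. By name series, the distal difference of mean log2 CPM was -0.64 in replicates 1 and 2 and -4.47 in replicates 3 and 4. Per 100 CPM of the neuronal list, Kcnc4 was lower in every HSCR distal than in every WT distal library (exact permutation p = 0.0286). HSCR distal libraries 2 to 4 held 0, 0 and 2 counts of Kcnc4, over list sums of 97.6, 44.8 and 19.4 CPM. Their values on this scale are therefore near the floor. In the proximal colon the groups overlapped on this scale and the HSCR mean was 0.497 against 0.490 in WT. That proximal HSCR mean includes 1.62 in the library labelled HSCR proximal 1, and its libraries 3 and 4 were at 0.0244 and 0.0548. In those libraries 3 and 4, Vip was 1608 and 871 CPM of the list, which lowers values on this scale.

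Kcnc2, another Kv3 gene, was at 2.04, 9.95, 20.6 and 14.9 CPM in WT proximal and 0.100, 0.475, 4.85 and 4.48 CPM in HSCR proximal libraries. Distally it was at 0.133, 1.96, 12.1 and 8.82 CPM in WT and at 1.09, 0, 0.0270 and 0.277 CPM in HSCR. The groups overlapped in both segments, through WT library 1 in each. Its distal log2 fold change came to -4.03 (SE 1.52, adjusted p = 1.00 by edgeR), and -5.73 without both HSCR libraries 1. Replicates 1 and 2 gave a distal difference of mean log2 CPM of -0.49, and replicates 3 and 4 one of -4.08.

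**Figure D5:**
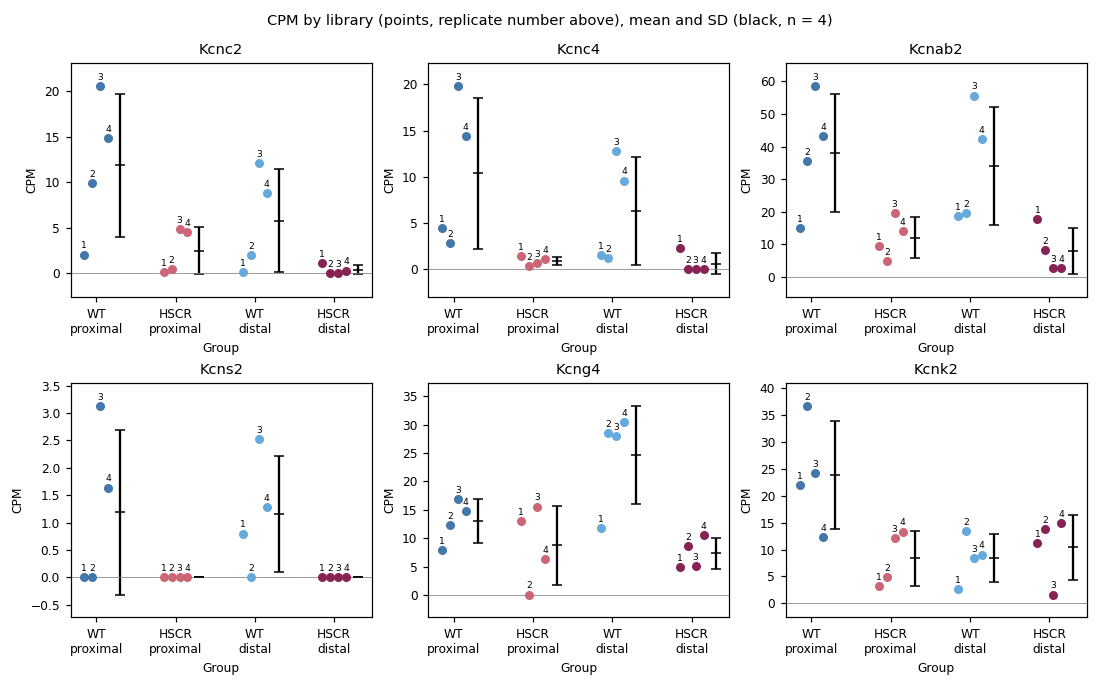
CPM of 6 genes in each library (points with the replicate number above), with the group mean and SD (black, n = 4 libraries). Kcnc4 in the proximal colon and Kcnab2 and Kcng4 in the distal colon show HSCR libraries below every WT library, and Kcns2 is at 0 in all 8 HSCR libraries.

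Kv beta subunits join Kv1 channels and carry them to axons. Kcnab2 (ENSMUSG00000028931, chr4:152475199-152562367, minus strand, mm39) was at 18.5, 19.7, 55.7 and 42.4 CPM in WT distal libraries and at 17.7, 8.16, 2.70 and 2.56 CPM in HSCR distal libraries. Every HSCR library lay below every WT library, and the closest pair was that of the libraries labelled WT distal 1 and HSCR distal 1. The distal log2 fold change came to -2.13 (SE 0.66, unadjusted p = 0.00526, adjusted p = 1.00 by edgeR), the smallest unadjusted p of the 77 genes, and -2.93 without both HSCR libraries 1. As a difference of mean log2 CPM it was -0.64 in replicates 1 and 2 and -3.97 in replicates 3 and 4. In the proximal colon Kcnab2 was at 14.8, 35.4, 58.7 and 43.3 CPM in WT and 9.48, 4.75, 19.5 and 13.96 CPM in HSCR, overlapping only between WT library 1 and HSCR library 3. The proximal log2 fold change came to -1.67 (SE 0.65, adjusted p = 0.703 by edgeR). Per 100 CPM of the neuronal list the genotype groups of Kcnab2 overlapped in both segments (exact permutation p = 0.600 and 0.914), and the proximal mean was 3.98 in HSCR and 2.03 in WT. Kcnab1 and Kcnab3 overlapped between genotypes in both segments.

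Among the Kv1 genes, 5 of 6 had lower fitted levels in HSCR in each segment. Kcna2 and Kcna1 of axons were at 22.6 to 131 and 3.37 to 7.38 CPM in WT proximal and at 3.72 to 43.1 and 0.292 to 8.31 CPM in HSCR proximal libraries. Kcna6 followed the neuronal list (r = 0.93, n = 16 libraries), at 14.6 to 45.4 CPM in WT proximal and 2.96 to 26.8 CPM in HSCR proximal libraries. Kcna7, a skeletal muscle channel, was counted at 1.77 and 1.36 CPM in WT distal libraries 1 and 2, at 0.850 CPM in the library labelled HSCR proximal 1 and at 0.671 CPM in HSCR distal library 2. In WT distal library 1, HSCR proximal library 1 and HSCR distal library 2, a list of 5 skeletal muscle genes was at 1079, 2027 and 1204 CPM, with both defining markers counted, against 22.4 to 291 CPM in the remaining 13 libraries. WT distal library 2, with 1.36 CPM of Kcna7, held 112 CPM of this list. The part of such tissue in the values of Kcna7 was not tested.

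Silent Kv subunits had lower fitted levels in HSCR for 7 of 9 genes proximally and for 9 of 9 distally. Kcng4 (ENSMUSG00000045246, chr8:120350593-120362419, minus strand, mm39) was at 11.8, 28.5, 27.9 and 30.5 CPM in WT distal libraries and at 4.95, 8.64, 5.08 and 10.6 CPM in HSCR distal libraries. No HSCR library reached the lowest WT library, and the gap was narrowest between WT library 1 and HSCR library 4. The means were 24.7 ± 8.64 and 7.32 ± 2.78 CPM (SD, n = 4), and the log2 fold change came to -1.75 (SE 0.82, unadjusted p = 0.0491, adjusted p = 1.00 by edgeR, exact permutation p = 0.0286). The difference of mean log2 CPM was -1.42 in replicates 1 and 2 and -1.91 in replicates 3 and 4. In the proximal colon Kcng4 was at 7.99, 12.3, 16.9 and 14.8 CPM in WT and 13.0, 0.0730, 15.6 and 6.27 CPM in HSCR, with overlap (log2 fold change -0.57, SE 0.80). Per 100 CPM of the neuronal list, Kcng4 overlapped between genotypes in both segments and its HSCR mean was above that of WT, at 18.8 against 5.90 distally (exact permutation p = 0.514) and 3.92 against 0.795 proximally (exact permutation p = 0.943). Those HSCR means include 54.7 in HSCR distal library 4 and 14.8 in the library labelled HSCR proximal 1. The genotype difference of Kcng4 did not pass the test of a difference between segments (interaction -1.18, SE 1.13, adjusted p = 1.00 by edgeR). Levels of Kcng4 ran in the order WT distal, WT proximal, HSCR proximal and HSCR distal by group mean, at 24.7, 13.0, 8.73 and 7.32 CPM, and each pair of neighbours in this order overlapped. Its pattern was closest to the fibroblast list (r = 0.72, n = 16 libraries), and WT distal libraries 1 and 2, with 95.4 and 346 CPM of the neuronal list, held it at 11.8 and 28.5 CPM.

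Kcns2, a silent subunit that joins Kv2 channels, had 0 counts in all 8 HSCR libraries. It was at 0, 0, 3.13 and 1.64 CPM in WT proximal libraries and at 0.801, 0, 2.53 and 1.29 CPM in WT distal libraries. Taking 3 counts in each HSCR library as the floor, its mean was at least 13.7-fold lower in HSCR proximal and at least 13.3-fold lower in HSCR distal libraries (unadjusted p = 0.0119 and 0.0124, adjusted p = 0.703 and 1.00 by edgeR). WT proximal libraries 1 and 2 and WT distal library 2 were at 0 as well, so the groups were not separated. Kcnv1 was at 9.37 and 9.10 CPM in WT distal libraries 3 and 4, at 0.692 CPM or lower in WT distal libraries 1 and 2 and at 0.400 CPM or lower in HSCR distal libraries. Kcnf1, Kcns1 and Kcns3 followed the smooth muscle list most closely (r = 0.82, 0.77 and 0.67) and overlapped between genotypes.

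Of the 12 inward rectifiers, 8 had lower fitted levels in HSCR proximally and 7 distally. Kcnj8 (ENSMUSG00000030247, chr6:142510563-142517340, minus strand, mm39) was at 85.4, 88.1, 128 and 95.9 CPM in WT proximal and at 154, 34.3, 242 and 374 CPM in HSCR proximal libraries. HSCR proximal library 2 was the lowest of the 8, and the other 3 HSCR libraries lay above all WT proximal libraries. The log2 fold change came to 1.02 (SE 0.63, adjusted p = 0.750 by edgeR), and 0.76 distally (SE 0.62). Abcc9, the sulphonylurea receptor that completes this KATP channel, was at 85.8 to 176 CPM in WT proximal and 19.4 to 360 CPM in HSCR proximal libraries, with HSCR proximal library 2 again lowest. In that library the smooth muscle list of 8 genes was at 5211 CPM, against 27706 to 100921 CPM elsewhere.

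Kcnj10, the inward rectifier of glia, was at 15.2 to 40.6 CPM in WT proximal and 2.33 to 19.4 CPM in HSCR proximal libraries. In the distal colon it was at 4.71 to 29.2 CPM in WT, at 10.7 CPM in the library labelled HSCR distal 1 and at 0.186, 0.621 and 0.138 CPM in HSCR libraries 2 to 4. The distal log2 fold change came to -2.49 (SE 1.12, unadjusted p = 0.0417, adjusted p = 1.00 by edgeR), and without both HSCR libraries 1 the groups did not overlap. Its log2 CPM followed the neuronal list (r = 0.91, n = 16 libraries). A list of 6 glial genes, all counted in every library, summed to 350 to 818 CPM in WT proximal, 58.5 to 292 CPM in HSCR proximal, 146 to 478 CPM in WT distal and 36.6 to 242 CPM in HSCR distal libraries.

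Kcnj3 and Kcnj9 encode GIRK channel subunits, which open when inhibitory receptors are activated. Kcnj3 was at 0, 2.19, 10.2 and 8.49 CPM in WT distal and at 0.572, 0, 0.0540 and 0 CPM in HSCR distal libraries. Its distal log2 fold change came to -5.02 (SE 1.91, adjusted p = 1.00 by edgeR), with overlap through WT library 1, and -7.89 without both HSCR libraries 1. Replicates 1 and 2 differed by -0.66 in mean distal log2 CPM of Kcnj3, and replicates 3 and 4 by -4.22. Kcnj4, an inward rectifier, had 0 counts in the WT proximal libraries and was at 0.325, 0, 0.515 and 0.501 CPM in the HSCR proximal libraries. Against a floor of 3 counts in each WT library its HSCR proximal mean was at least 2.50-fold higher (unadjusted p = 0.0148, adjusted p = 0.703 by edgeR). Distally Kcnj4 was at 0, 0, 0.0396 and 0.0938 CPM in WT and at 2.34, 0, 0.108 and 0.208 CPM in HSCR libraries.

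K2P genes carry leak currents. Kcnk2, the stretch-sensitive TREK-1 channel (ENSMUSG00000037624, chr1:188940127-189134470, minus strand, mm39), was at 22.0, 36.7, 24.2 and 12.3 CPM in WT proximal libraries. HSCR proximal libraries held 3.18, 4.93, 12.2 and 13.4 CPM and WT distal libraries 2.60, 13.5, 8.40 and 9.06 CPM. In each of these comparisons a single library crossed WT proximal library 4, at 12.3 CPM, and the other libraries lay below all WT proximal libraries. The log2 fold changes were -1.50 for HSCR against WT in the proximal colon and -1.50 for distal against proximal colon in WT (SEs 0.66 and 0.66, unadjusted p = 0.0370 and 0.0363, adjusted p = 0.703 and 0.953 by edgeR). These comparisons share the 4 WT proximal libraries. HSCR distal libraries were at 11.2, 13.8, 1.62 and 14.9 CPM, and the interaction of genotype and segment was 1.81 (SE 0.92, unadjusted p = 0.0668, adjusted p = 1.00 by edgeR), the smallest unadjusted p of the 77 genes for that term. Without both HSCR libraries 1, the proximal log2 fold change of Kcnk2 was -1.18 and the interaction 1.45. Its proximal difference of mean log2 CPM was -2.70 in replicates 1 and 2 and -0.42 in replicates 3 and 4. Of the cell type lists, Kcnk2 was closest to that of glia (r = 0.67, n = 16 libraries), and its r with the smooth muscle list was 0.07. The glial list did not overlap between WT proximal (350 to 818 CPM) and HSCR proximal libraries (58.5 to 292 CPM), and its part in the values of Kcnk2 was not tested. Kcnk3 overlapped between genotypes in both segments, at 28.0 to 89.7 CPM in WT proximal and 17.4 to 76.3 CPM in HSCR proximal libraries.

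Among the 10 genes listed for smooth muscle, fitted levels in HSCR were lower for 7 and higher for 3 in the proximal colon, and lower for 4 and higher for 6 in the distal colon, with medians of -0.18 and 0.17. The BK pore gene Kcnma1 was at 29.5, 48.9, 91.3 and 71.8 CPM in WT proximal and at 108, 7.20, 80.9 and 114 CPM in HSCR proximal libraries. Its beta subunit Kcnmb1 was at 53.3, 35.0, 90.8 and 116 CPM in WT proximal and at 114, 7.71, 49.0 and 117 CPM in HSCR proximal libraries. For both, HSCR proximal library 2 was the lowest of the 16 and the genotype groups overlapped in both segments. The log2 fold changes of Kcnma1 were 0.36 and 0.31 (SEs 0.81 and 0.81). Kcnmb2, another BK beta subunit, was at 2.18, 1.51, 2.40 and 2.29 CPM in WT proximal and at 0.675, 0.146, 0.662 and 1.00 CPM in HSCR proximal libraries, without overlap (log2 fold change -1.75, SE 1.02, adjusted p = 0.736 by edgeR, exact permutation p = 0.0286). That exact p follows from the lack of overlap, for which Kcnmb2 was named, and adds no support to it. Distally its WT libraries held 0.422 to 1.62 CPM and its HSCR libraries 0 to 1.89 CPM.

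Genes listed for the epithelium (Kcne3, Kcnk1, Kcnk5, Kcnn4 and Kcnq1) had higher fitted levels in HSCR for 5 of 5 in both segments, with medians of 2.52 and 1.08, and none at an unadjusted p under 0.05. Summed, they were at 5.45 to 40.6 CPM in WT proximal, 12.8 to 228 CPM in HSCR proximal, 10.6 to 46.9 CPM in WT distal and 8.35 to 101 CPM in HSCR distal libraries. HSCR proximal library 2 held 57.5 CPM of Kcne3, the epithelial partner of Kcnq1, where the other proximal libraries held 0 to 9.19 CPM. That library also held 17072 CPM of an epithelial list of 11 genes, all 11 counted, against 46.5 to 5673 CPM in the other 15. Krt8 and Epcam, defining markers of the list, were counted in every library, and Vil1 was at 0 in WT proximal library 4. The part of mucosa in the epithelial channel genes was not tested.

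In the WT colon, 48 of the 77 genes had a lower fitted level distally than proximally, with a median of -0.36 on the log2 scale, where that of the whole table was 0.01. None passed the adjusted threshold (0.0% of all genes). Lower at an unadjusted p under 0.05 was 1 gene, Kcnk2, where 1.83% of all genes were, and 0 were higher, where 3.03% were. Kcnh8 and Kcnip1 were lower distally without overlap, against 1.7% of all genes, and 0 were higher without overlap, against 2.38%. Kcnip1, a KChIP subunit, was at 40.0, 27.9, 50.1 and 25.9 CPM in WT proximal and at 2.74, 11.6, 17.98 and 20.2 CPM in WT distal libraries (log2 fold change -1.45, SE 0.74, adjusted p = 0.953 by edgeR). The ELK channel gene Kcnh8 was at 0.904, 4.86, 1.04 and 0.863 CPM in WT proximal libraries, at 0.300, 0.438, 0.772 and 0.788 CPM in HSCR proximal and at 0, 0, 0.475 and 0.610 CPM in WT distal libraries. By CPM, WT proximal libraries thus held the most Kcnh8 in both comparisons, which share those 4 libraries. WT proximal library 4 held 20 counts of it, against 22 in HSCR proximal library 4 and 26 in WT distal library 4. DESeq2 passed 0 of the 77 in the WT colon. The RUVr factors gave 4 (Kcnh2, Kcnip1 and Kcnk9 lower, Kcne3 higher), where 6.72% of all genes passed.

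In the HSCR colon, 54 genes had a lower fitted level distally and 22 a higher one, with a median of -0.39 where that of the whole table was -0.03, and none passed the adjusted threshold (0.0% of all genes). Kcnh6, an ERG family gene, was lower at an unadjusted p under 0.05, where 1.21% of all genes were, and Kcnip2 was higher, where 1.36% were. Kcnh6 was at 0.05001, 2.34, 3.29 and 2.00 CPM in HSCR proximal and at 0.143, 0, 0.216 and 0 CPM in HSCR distal libraries, with the library labelled HSCR proximal 1 inside the distal range (distal against proximal, log2 fold change -4.36, SE 1.56, adjusted p = 1.00 by edgeR). DESeq2 passed 0 of the 77, and the RUVr factors gave 4 lower genes (Kcnc2, Kcnc4, Kcnj10 and Kcnj3), where 1.76% of all genes passed. Kcnip2 was at 4.58, 1.68, 0.883 and 3.29 CPM in HSCR proximal and 5.58, 3.20, 2.54 and 20.9 CPM in HSCR distal libraries. In WT distal libraries Kcnh6 was at 0.734, 0.577, 0.910 and 0.587 CPM, each above the HSCR distal libraries (log2 fold change -2.91 for HSCR against WT, SE 1.47, adjusted p = 1.00 by edgeR, exact permutation p = 0.0286). That exact p follows from the lack of overlap and adds no support to it. No gene of the 77 was separated between the HSCR segments over all 8 libraries, against 0.676% of all genes lower and 0.692% higher. Without both libraries labelled HSCR 1, 10 of the 77 were lower distally without overlap, where 5.66% of all genes were, among them Kcna4, Kcnc2, Kcnc4, Kcnh6, Kcnh8, Kcnj10, Kcnj3, Kcnk9 and Kcnmb4. At the 3 libraries then left in each group, 0 of the 77 were higher without overlap, where 6.1% of all genes were.

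The genotype difference was also compared between segments. No potassium channel gene passed the adjusted threshold of this interaction (0.0% of all genes), and 0 of the 77 had an unadjusted p under 0.05, where 0.639% of all genes were above 0 and 0.867% below it by that limit. DESeq2 passed 0 of the 77, and the RUVr factors gave 3 (Kcne3, Kcnj3 and Kcnq1, each below 0), where 1.54% of all genes passed. After Kcnk2, the smallest unadjusted p-values were those of Kcnk7, Kcnh6, Kcnip2, Kcna7 and Kcnv1, from 0.0683 to 0.134.

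Without both libraries labelled HSCR 1, Kcnc4, Kcnh8, Kcnip2, Kcnj12 and Kcnmb2 were lower without overlap in the HSCR proximal colon (3.73% of all genes) and Kcnk5 was higher (3.81%). In the distal colon Kcnab2, Kcnc4, Kcng4, Kcnh6 and Kcnj10 were lower (3.12%) and 0 genes were higher (2.22%).

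By correlation of log2 CPM over the 16 libraries with 12 cell type lists, 31 of the 77 genes were closest to the neuronal list (r from 0.30 to 0.97). Mesothelium was closest for 10, interstitial cells of Cajal for 8, epithelium and smooth muscle for 7 each, endothelium for 6, skeletal muscle for 3, fibroblasts and macrophages for 2 each and glia for 1, Kcnk2. These are descriptions over libraries that share groups and depth. Of the 31 genes closest to neurons, 29 had lower fitted levels in HSCR proximally and 29 distally, with medians of -1.75 and -2.03. Of all genes tested, 43.9% and 44.6% were lower. The 31 genes were picked for following the list over these same libraries. The median sum of the list was itself lower in HSCR, at 1075 against 2238 CPM proximally and 71.2 against 1011 CPM distally. The direction of the 31 genes was thus largely set by the choice and is no separate result. Kcnma1 followed the mesothelial list (r = 0.92), Kcnh2 that of interstitial cells of Cajal (r = 0.94), Kcnmb1 smooth muscle (r = 0.91) and Kcne3 the epithelium (r = 0.93). For Kcnma1 the r with the smooth muscle list was 0.84, and the lists were not tested against each other. The part of cell type content in the genotype differences was not tested beyond the scale relative to the neuronal list.

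Of 14 genes listed as channel partners or as HCN pacemaker channels, 12 were tested, and 10 had lower fitted levels in HSCR proximally and 9 distally. Of all genes tested, 43.9% and 44.6% were lower. None of the 12 passed the adjusted threshold. At an unadjusted p under 0.05, 2 were lower proximally, where 2.98% of all genes were, and 1 distally, where 2.33% were. Cntnap2 and Lrrc55 were lower distally without overlap, against 1.04% of all genes. Cntnap2, an axonal protein that gathers Kv1 channels, was at 2.86, 10.4, 52.3 and 28.7 CPM in WT proximal and at 2.02, 0.0730, 3.94 and 3.76 CPM in HSCR proximal libraries (log2 fold change -3.26, SE 1.14, unadjusted p = 0.0115, adjusted p = 0.703 by edgeR). In the distal colon Cntnap2 was at 1.17, 1.67, 16.9 and 22.5 CPM in WT and at 0.8292, 0.969, 0.378 and 0.346 CPM in HSCR libraries, each HSCR library below every WT library (log2 fold change -4.07, SE 1.19, unadjusted p = 0.00368, adjusted p = 1.00 by edgeR). Abcc8, the neuronal sulphonylurea receptor, was at 0.904 to 16.6 CPM in WT proximal and 0.511 to 1.45 CPM in HSCR proximal libraries (log2 fold change -3.23, SE 1.399, unadjusted p = 0.0355). Dpp6, a partner of Kv4 channels, was at 12.8 to 141 CPM in WT proximal and 1.02 to 44.6 CPM in HSCR proximal libraries.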

How the data were processed

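LMMP RNA of 16 libraries was analysed. Per the submitters' notes, HISAT2 2.2.1 and featureCounts 2.0.6 were used by the authors for alignment to the mm39 genome and for assigning reads to GENCODE genes, of a release not given in the sources used here. The deposited counts are whole numbers without normalization, between 21384372 and 45831881 per library, and this depth limits the values of genes with few counts. The deposited comparisons of the authors (fold changes and p-values) were not used. Gene lengths for levels per kb are those of the deposited table. Reads shared with overlapping genes cannot be told apart. No libraries were identical (0 pairs).

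The channel genes, cell type lists, partner list and comparisons were chosen with earlier results of these data known. Some further genes matching the symbol pattern are not reported here. Counts were fitted with edgeR 4.0.16 (R 4.3.3, limma 3.58.1) in 1 quasi-likelihood model of 4 groups with TMM factors, over 18926 genes with at least 10 counts in 4 libraries, and p-values were adjusted by Benjamini-Hochberg with a threshold of 0.05. Exact permutation tests were two-sided, on log2(CPM + 0.5) unless relative to the neuronal list. Groups of 4 against 4 libraries without overlap always give the smallest possible p, 0.0286. For any gene without overlap it therefore repeats the separation and adds no support. The genes named were the 6 with the smallest unadjusted p in each comparison, the gene highest per kb in each subfamily, Kcng4, and genes of the role lists. The rule gave tests for the genes of smallest p and levels alone for the rest. Tests of Kcng4, Kcnj8, Kcnj10, Kcnma1, Kcnmb2 and Kcnq3 were added after their values were seen, as were the names of genes outside the rule (such as Kcna6, Kcnab1, Kcnab3, Kcns1, Kcns3, those next to the count minimum, those whose groups did not overlap and those that passed with RUVr factors). A floor of 3 counts per library served for groups at 0. Library name series are those of the library names in the labels, which set replicates 1 and 2 of each group apart from replicates 3 and 4. The series term does not separate the names with CM from those with LC among replicates 3 and 4.

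Alternatives were DESeq2 1.42.0, the likelihood ratio test with and without 4 RUVr factors (the Methods of the study name edgeR with RUVr), other normalizations and filters, fits of the compared groups alone, terms for replicate number or name series, and leaving out libraries. The fits were run on simulated counts with known changes, where recovery was required only at a spread well below that of these data. What could be detected at the spread of these data is not given here. Sequences were RefSeq promoters of GRCm38.p6. Exact permutation tests ran in Python 3.11.15 with numpy 2.4.6 and pandas 2.3.3, and figures in matplotlib 3.10.9.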

Additional observations from a re-analysis of the deposited data

Results flagged for a closer look

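For the named genes, 65 groups of 4 libraries were tested by Dixon's limit on a log scale of CPM. In 11 groups the highest or lowest library was set apart from the other 3. The limit is meant to set about 1 in 20 groups apart by chance alone. That rate does not cover groups with 1 library counted and 3 at 0, whose gap always equals their range. Kcna7 in WT proximal, Kcnk7 in WT proximal and WT distal, and Kcnv1 in HSCR distal were of this kind. The 11 groups can therefore not be held against 1 in 20. Kcnc4 was at 2.32 CPM in the library labelled HSCR distal 1, where the others of its group held 0, 0 and 0.0461 CPM. Kcnj3 was at 0.572 CPM and Kcnv1 at 0.400 CPM in that library, with the others at 0.0540 CPM or lower. Kcng4 was lowest in WT distal library 1, at 11.8 CPM against 27.9 to 30.5 CPM. Kcnip1 was lowest in HSCR proximal library 2, at 6.36 CPM against 52.5 to 73.3 CPM. Kcnk2 was lowest in HSCR distal library 3, at 1.62 CPM against 11.2 to 14.9 CPM. Kcna7 was highest in WT proximal library 3 at 0.0949 CPM, in the library labelled HSCR proximal 1 at 0.850 CPM and in HSCR distal library 2 at 0.671 CPM, with the others of each group at 0.0368 CPM or lower. Kcnk7 was counted in 1 library of WT proximal, library 2 at 1.47 CPM, and in 1 of WT distal, library 4 at 0.0938 CPM.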

How the results depend on the processing

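No potassium channel gene passed the adjusted threshold under any alternative except the likelihood ratio test with 4 RUVr factors, including those that left out 1 library (0 to 0 genes in each comparison). With those factors, 10 genes passed for HSCR against WT proximally (4 higher, 6 lower), 13 distally (4 higher, 9 lower), 4 for distal against proximal in WT (1 higher, 3 lower), 4 in HSCR (0 higher, 4 lower) and 3 for the interaction (0 higher, 3 lower). The cause was not tested. Kcnab2, Kcnc4 and Kcnj10 were lower in both segments in that fit, and Kcnj4 and Kcnk1 were higher. Of the single gene values, 823 kept their direction and side of the threshold. Kcnk7 turned to 1.34 with RUVr and 2.97 without WT proximal replicate 2 for distal against proximal in WT, and to -0.13 and -1.19 for the interaction, and leaving out 1 library gave -6.63 (without WT distal replicate 4) to 2.97 for the former and -1.19 to 8.42 (without WT distal replicate 4) for the latter. Per 100 CPM of the neuronal list, the proximal HSCR minus WT mean turned to 1.95 for Kcnab2, 0.00651 for Kcnc4 and 0.30 for Kcnk2. On that scale the HSCR mean was also above that of WT for Kcng4 in both segments (18.8 against 5.90 distally, 3.92 against 0.795 proximally) and for Kcnj3 proximally (0.332 against 0.242, exact permutation p = 0.629).

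The deviations of same-numbered libraries from their group means correlated at -0.211 to 0.4228, and in no pair of groups did all 4 numbers exceed 0.1. The library names of replicates 1 and 2 share a number between the 4 groups, and what it marks is not given in the sources used here. Between the segments, 3 of 4 numbers exceeded 0.1 in each genotype (0.41, 0.0925, 0.27 and 0.16 in WT, -0.00286, 0.283, 0.105 and 0.348 in HSCR), so a pairing was neither stated nor met in full. With the replicate number as a block, 0 genes passed the adjusted threshold in every comparison, and 4 of the 77 rather than 12 were lower distally at an unadjusted p under 0.05. With the name series as a term that count was 2. Leaving out HSCR distal library 1 gave 12 lower genes for distal against proximal in HSCR, where 1 was lower with it. Proximally the count of lower genes ran from 1 without WT library 3 to 7 without WT library 1. Shares of all genes at that limit in these alternative fits are not given here, so these counts have no background beside them. Genes with few counts, such as Kcns2, Kcnj4, Kcna7 and Kcnk7, rest on the depth of single libraries.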
